A study of Homo sapiens with 16 samples.

Results

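The aminoacyl-tRNA synthetase genes were taken as a list of 35 named genes, 19 for cytosolic and 16 for mitochondrial enzymes, and 33 of them held at least 1 called base among 13474 genes with a called base in the series. N6-methyladenosine (m6A), a common internal mark of messenger RNA, was mapped by m6A-eCLIP, in which RNA fragments are crosslinked to an m6A antibody, pulled down and sequenced, so that the base next to the crosslink can be called. There were 3 groups, all of the established human glioma line U87 MG (U87) or its derivative U87-R, which is resistant to the alkylating drug temozolomide (TMZ). The groups were U87-R under 50 µM STM2457, which blocks METTL3, the methyltransferase that writes m6A, for 96 hours (2 libraries), U87-R under a DMSO control label (3 libraries) and U87 under the same control label (3 libraries). The medium of U87-R held 50 µM TMZ and that of U87 did not, so resistance and the drug in the medium cannot be told apart. The labels do not say how U87-R was derived, nor whether each replicate was its own culture, and the p-values therefore cover the spread between libraries only, which may be technical.

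Aminoacyl-tRNA synthetases charge each transfer RNA with its amino acid. In animals most amino acids have 1 enzyme in the cytosol and another, encoded by a separate nuclear gene, in mitochondria; GARS1 and KARS1, counted here as cytosolic, serve both compartments, and EPRS1 joins the glutamate and proline enzymes in 1 protein. Several cytosolic enzymes form a multi-enzyme complex, and several cytosolic genes are transcribed more under amino acid shortage through the kinase GCN2 and the factor ATF4. METTL3 acts on many messenger RNAs, mainly in long internal exons and near stop codons. A related mark, m6Am, is placed by another enzyme, PCIF1, on an adenosine next to the cap, and m6A antibodies also bind it.

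Each library was a deposited list of called bases with a score. A gene's value is the sum of the scores of the called bases in its span on its strand, and a sum of 0 means that no base was listed. The libraries held 105900 and 110875 called bases with STM2457, against 149477 to 192697 in U87-R and 150135 to 182556 in U87. Depth is unknown, and the 8 input libraries, which would give RNA abundance, were not analysed here, so each value joins methylation with abundance, and fewer marked transcripts cannot be told apart from less marking of each. Of the markers listed for glioma lines, VIM, CD44, TNC, SPARC, NES and OLIG2 had called bases in all 8 libraries, while GFAP and S100B had none. FN1, listed with them, had sums of 331 and 234 with STM2457, against 70.2, 35.7 and 38.4 in U87-R and 0, 0 and 41.4 in U87. Of the markers of other cell types, PTPRC, CDH5, EPCAM, KRT5 and ALB had no called base and MBP summed to at most 0.511, while PECAM1 summed to 2.77 to 49.1 and CD68 to 157 to 403 over the 8 libraries, and their part in the results was not tested. MGMT, which repairs the lesions that TMZ makes, summed to 0.238 and 0.268 with STM2457, against 158, 101 and 107 in U87-R and 0 in all 3 libraries in U87.

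Called bases near the transcript start and those elsewhere differed in their scores with STM2457, so short stretches around the start are shown for 13 genes with bases called there in all 8 libraries or with STM2457 alone. They are taken from the RefSeq promoter table (GRCh38.p14), which held 30 of the 35 genes, and run 5′ to 3′. In the following 10 stretches of 30 bases, 5 bases precede the annotated start and the capitals mark the bases called in all 8 libraries. The letter after the first 5 is the first base of the transcript, a capital in all but CARS1. In all but CARS1 and HARS1 the base just before the annotated start was called in all 8 libraries too, and it lies in the gene's span, and so in the sums below, in CARS2 and EARS2 alone.
AARS1: ccggTAcagctgcgcgtctgcgggAatagg
HARS1: aagtcAtccttgctgaggctggggcaacca
RARS1: cgtcCActtggcgagtgagacgctgatggg
KARS1: tcctTACtttTgggtcgggccctccgggaa
MARS1: gttgCAtCAgcgagggattcacggcgaaat
FARSA: tgagCACActggaaggagtcatggcggatg
CARS1: cggttgcatCAgattctaggaagtgtctgt
CARS2: cgccCAgtcgtaggcgctggccgctgacat
EARS2: attcCAtcccacatggcggcgctcctgagg
YARS2: ccagCAttcccttcgtgccgctaccaagat

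In the next 3 stretches the capitals mark bases called in both STM2457 libraries and in no other library. These genes show bases near the start that were listed with the inhibitor alone. The MARS2 stretch, whose first capital lies before the start and outside the sums, begins 5 bases before the annotated start, the FARSB stretch at base 2 of the transcript and the IARS1 stretch at base 21.
MARS2: ctgtCAgaacgccgcctcctccgcttgcgg
FARSB: cagtgagttcgaCAcacCAtgccgactgtc
IARS1: gacgccggatgagttgctttTAggcttgct

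The stretches, with their strand, are AARS1 chr16:70289482-70289511 (minus), HARS1 chr5:140691346-140691375 (minus), RARS1 chr5:168486466-168486495 (plus), KARS1 chr16:75647641-75647670 (minus), MARS1 chr12:57488063-57488092 (plus), FARSA chr19:12933687-12933716 (minus), CARS1 chr11:3057399-3057428 (minus), CARS2 chr13:110706092-110706121 (minus), EARS2 chr16:23557326-23557355 (minus), YARS2 chr12:32755873-32755902 (minus), MARS2 chr2:197705364-197705393 (plus), FARSB chr2:222656062-222656091 (minus) and IARS1 chr9:92293648-92293677 (minus). Among starts in the promoter table, the first transcript base was called in at least 1 library at 12 starts of synthetase genes. It was A at all 12, while 41.0% of the 39 annotated starts of these genes in that table begin with A. Over all genes it was A at 3490 of 3717 such starts (93.9%), while A begins 44.4% of all annotated starts. LARS1, VARS1 and YARS1, which the promoter table does not hold, had a called first base too, and its letter was not read. Among bases 2 to 50 of the transcript, 36 of the 100 called bases of synthetase genes were A, where 16.4% of the annotated bases are A. Over all genes 41.8% of the called bases there were A, where 20.03% of the annotated bases are. Of the bases before the start that the sums leave out, that of YARS2 scored 90.4 and 76.4 with STM2457, against 47.8, 38.0 and 20.6 in U87-R and 8.18, 20.8 and 30.1 in U87. The letters are a description, and whether the called first bases carry m6Am or m6A was not tested.

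Summed over each class, the bases within 50 nt of an annotated 5′ end were higher with STM2457 than in U87-R, and the other bases were lower. In the cytosolic genes the sum near the 5′ end was 2499 and 2467 with STM2457, against 1722, 1567 and 1567 in U87-R and 872, 1274 and 1037 in U87. Elsewhere in the same genes it was 2149 and 2105 with STM2457, against 5077, 3303 and 4484 in U87-R and 3025, 3406 and 3617 in U87. The STM2457 libraries thus lay above all other libraries near the 5′ end and below all of them elsewhere.

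In the mitochondrial genes the sum near the 5′ end was 507 and 489 with STM2457, against 172, 215 and 198 in U87-R and 108, 205 and 161 in U87. Elsewhere it was 1576 and 1749.6 with STM2457, against 4154, 3208 and 3197 in U87-R and 2464, 3624 and 2867 in U87. Near the 5′ end the mitochondrial class held far less than the cytosolic class in every library, and again the STM2457 libraries were outside the range of the other groups on both sides of the limit.

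The share of the class sum near the 5′ end averaged 53.9% ± 0.133 with STM2457 (SD, n = 2), against 27.8% ± 3.80 in U87-R and 24.0% ± 2.83 in U87 (SD, n = 3 each) for the cytosolic genes. For the mitochondrial genes it averaged 23.1% ± 1.76 with STM2457, against 5.36% ± 1.22 in U87-R and 4.95% ± 0.671 in U87. Over all genes it was 28.6% and 29.8% with STM2457, 9.29% to 11.6% in U87-R and 8.48% to 9.84% in U87. The cytosolic genes thus carried a larger share at the 5′ end than all genes together in each library, and the mitochondrial genes a smaller one. At the other end, within 1000 nt of the annotated gene end, lay 20.7% of the cytosolic sum with STM2457, 51.9% in U87-R and 56.5% in U87. Of the mitochondrial sum, 13.7% lay there with STM2457, 25.5% in U87-R and 24.1% in U87.

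**Figure D1:**
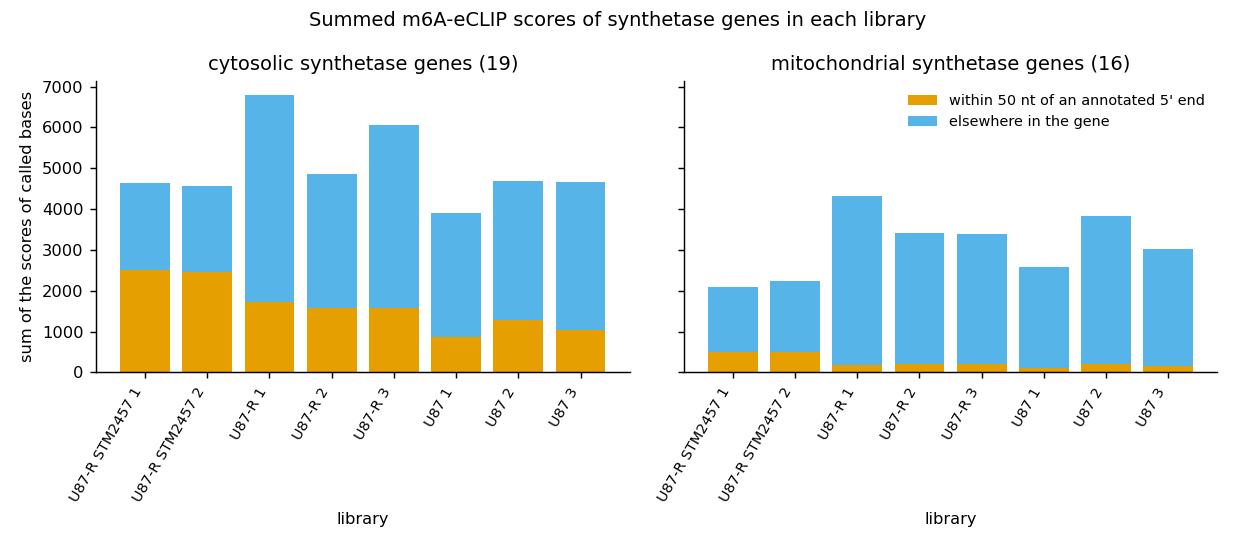
Summed scores of called bases (y axis) in each of the 8 libraries (x axis) for the 19 cytosolic and the 16 mitochondrial synthetase genes, split into bases within 50 nt of an annotated 5′ end and bases elsewhere. With STM2457 the lower, 5′ portion makes up 53.9% of the cytosolic and 23.1% of the mitochondrial sum on average, more than in U87-R or U87.

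The first comparison asks how METTL3 inhibition changed the marks in resistant cells. Changes are log2(sum + 1) of STM2457-treated U87-R minus that of U87-R, ± the standard error of the fit, and a gene is called when its p, adjusted by Benjamini-Hochberg over 10841 genes, is under 0.05. The threshold was passed by 6.34% of all genes in the higher and 38.5% in the lower direction, and the median change of all genes was -0.69, which is the level that the changes below are to be read against. Of the 19 cytosolic genes, all tested, 4 were called higher and 6 lower, with a median change of 0.34. Of the 16 mitochondrial genes, 11 were tested, 0 were called higher and 6 lower, with a median change of -0.65, and 5 were too low to test. Among the mitochondrial genes tested the count at an unadjusted p under 0.05 was 7 (63.6%), in both directions together, beside 12 of the 19 cytosolic genes (63.2%) and 52.7% of all genes. A gene that reached a sum of 10 on 1 side of the comparison alone entered the fit through that side, so its call is no support and no p is given for it. Of the synthetase genes these were IARS1 and FARSB, which reached 10 with STM2457 alone, and FARS2 and WARS2, which reached it in untreated libraries alone; over all genes, 185 of the 687 called higher and 636 of the 4171 called lower were such genes. When libraries were centred on their median gene, which removes the general drop, 1658 of all genes were called higher and 2611 lower, 7 cytosolic genes were higher and 3 lower, and 0 mitochondrial genes were higher and 4 lower. IARS1 and FARSB are among these higher genes and FARS2 and WARS2 among the lower, and their calls remain no support. Under that centring YARS1, HARS1, LARS1, AARS2 and EARS2 lost their calls, with changes from -0.52 to -0.09.

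The libraries of the 2 groups did not overlap in 7 cytosolic genes that were higher with STM2457 (FARSA, FARSB, IARS1, KARS1, MARS1, NARS1 and VARS1) and in 8 that were lower (AARS1, EPRS1, GARS1, HARS1, LARS1, SARS1, TARS1 and YARS1). Among the mitochondrial genes, none was higher without overlap and 9 were lower (AARS2, EARS2, FARS2, HARS2, LARS2, PARS2, TARS2, WARS2 and YARS2). IARS1, FARSB, FARS2 and WARS2 entered the fit through the side on which they are high, so their lack of overlap is no support. Of all tested genes, 17.0% were higher and 50.1% lower without overlap.

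**Figure D2:**
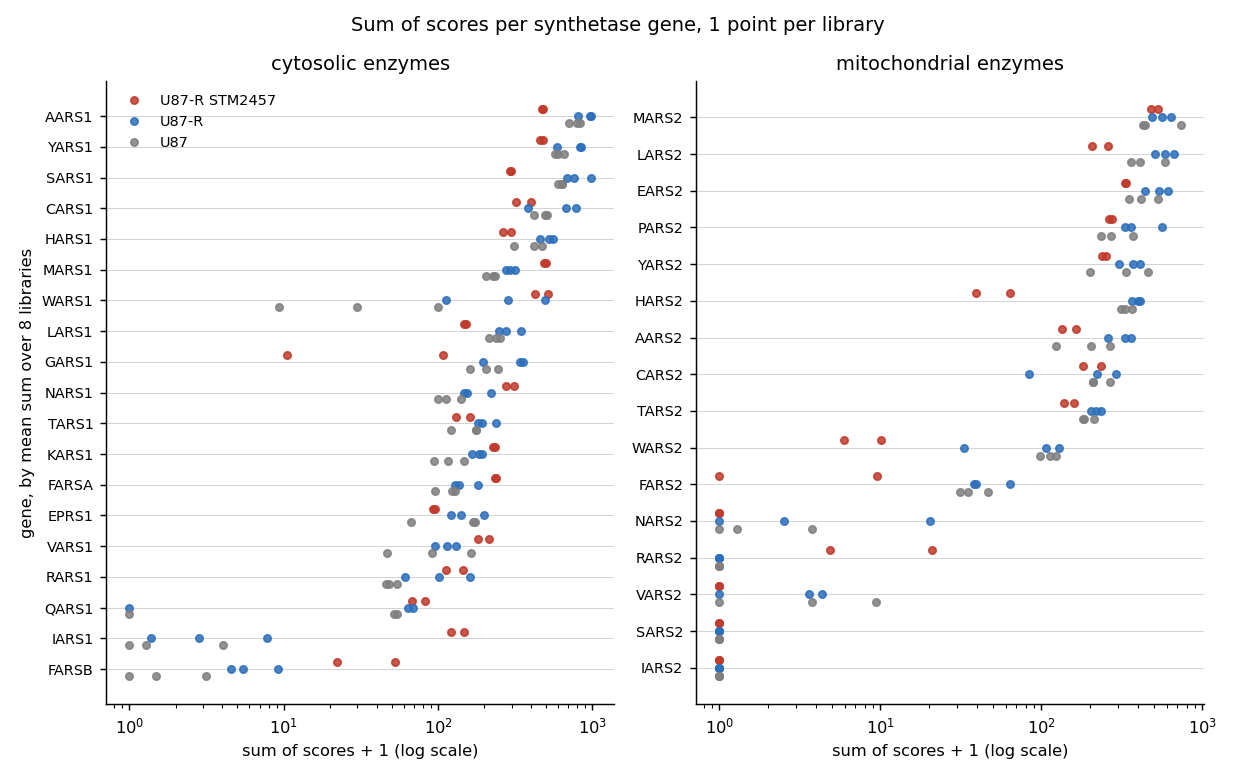
Sum of scores + 1 on a log scale (x axis) for each synthetase gene (y axis, ordered by mean sum), with 1 point per library and colours for STM2457-treated U87-R, U87-R and U87. With STM2457, IARS1 and FARSB lie right of the other libraries and HARS2, WARS2 and FARS2 left of them.

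The 3 cytosolic genes with the highest sums were AARS1, YARS1 and SARS1, and all 3 fell with STM2457. AARS1, the alanine enzyme, had sums of 477 and 473 with STM2457, against 972, 809 and 976 in U87-R and 706, 832 and 797 in U87 (log2 change -0.95 ± 0.14, adjusted p = 0.000853). YARS1, the tyrosine enzyme, had 454 and 476 with STM2457, against 839, 589 and 829.6 in U87-R and 597, 569 and 651 in U87 (log2 change -0.67 ± 0.18, adjusted p = 0.014). In both genes the treated libraries lay below all others, and by the number of called bases AARS1 lost its call (adjusted p = 0.124). SARS1, the serine enzyme, had 292 and 296 with STM2457, against 978, 682 and 764 in U87-R and 597, 633 and 638 in U87 (log2 change -1.44 ± 0.17, adjusted p = 0.000281), and its treated libraries were below every untreated one too.

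The other cytosolic genes that fell were HARS1, LARS1 and GARS1, the histidine, leucine and glycine enzymes. HARS1 had sums of 263 and 297 with STM2457, against 553, 457 and 526 in U87-R and 309.5, 471 and 419 in U87 (log2 change -0.87 ± 0.20, adjusted p = 0.00816). LARS1, whose product also serves as a leucine sensor of the mTORC1 pathway, had 146 and 151 with STM2457, against 346, 249 and 275 in U87-R and 238, 213 and 252 in U87 (log2 change -0.94 ± 0.21, adjusted p = 0.00575). GARS1 had 107 and 9.49 with STM2457, against 340.1, 195 and 354 in U87-R and 204, 159.7 and 245 in U87 (log2 change -3.09 ± 0.80, adjusted p = 0.013). The 2 treated libraries differed widely in GARS1: its change was -1.41 (adjusted p = 0.0474) without STM2457 replicate 2 and -4.78 (adjusted p = 0.00131) without replicate 1. The YARS1 call was lost without STM2457 replicate 1 (adjusted p = 0.0941), without replicate 2 (0.0672) or without U87-R replicate 3 (0.0529), and that of HARS1 without STM2457 replicate 1 (0.0736). By the number of called bases HARS1 and LARS1 lost their calls (adjusted p = 0.147 and 0.248), and GARS1 lost its call with scores of at least 10 alone (0.0514) and with only the 2 groups fitted (0.0501).

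The 4 cytosolic genes called higher encode the isoleucine enzyme, the beta subunit of the phenylalanine enzyme, and the methionine and asparagine enzymes. IARS1 had sums of 146 and 120.4 with STM2457, against 0.391, 6.81 and 1.83 in U87-R and 0.290, 0 and 3.05 in U87, and FARSB had 21.2 and 51.7 with STM2457, against 8.13, 3.52 and 4.49 in U87-R and 0, 0.480 and 2.16 in U87. These 2 genes were below 10 in every untreated library and above it with STM2457, which is how they entered the fit. MARS1 had 503 and 485 with STM2457, against 291, 275 and 315 in U87-R and 203, 232 and 228 in U87 (log2 change 0.75 ± 0.16, adjusted p = 0.00507), and NARS1 had 309.9 and 275 with STM2457, against 145, 152 and 219 in U87-R and 98.3, 139.5 and 112 in U87 (log2 change 0.78 ± 0.27, adjusted p = 0.0408). In MARS1 and NARS1 the treated libraries lay above all untreated ones, and the untreated sums were well above 0. By the number of called bases MARS1 lost its call (adjusted p = 0.138), and the NARS1 change was -0.029. The NARS1 call was lost without STM2457 replicate 1 (adjusted p = 0.183) or 2 (0.104), U87-R replicate 1 (0.0983) or 2 (0.0756), or U87 replicate 3 (0.0566), and also with scores of at least 10 alone (0.0667).

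The remaining 9 cytosolic genes did not pass the threshold. FARSA, the alpha subunit of the phenylalanine enzyme, had sums of 233 and 236 with STM2457, against 136, 179.8 and 128 in U87-R and 94.8, 128 and 122 in U87 (log2 change 0.68 ± 0.26, adjusted p = 0.0596). VARS1, the valine enzyme, had 181 and 214 with STM2457, against 130.2, 94.9 and 114 in U87-R and 46.0, 164 and 90.4 in U87 (log2 change 0.81 ± 0.48, adjusted p = 0.196), and KARS1, the lysine enzyme, had 225 and 231 with STM2457, against 184, 191 and 166 in U87-R and 93.7, 147 and 115 in U87 (log2 change 0.34 ± 0.25, adjusted p = 0.295). These 3 genes were above the untreated libraries in both treated libraries, and all 3 were called higher when libraries were centred on their median gene (changes of 1.24, 1.37 and 0.90, adjusted p = 0.00749, 0.02 and 0.0156 for FARSA, VARS1 and KARS1). CARS1 (change -0.71, adjusted p = 0.0711), EPRS1 (-0.68, 0.24) and TARS1 (-0.48, 0.167) had values below 0, and RARS1 (0.36, 0.537), WARS1 (0.90, 0.445) and QARS1 (2.19, 0.438) had values above 0. QARS1 was listed at 0 in replicate 2 of both untreated groups, and its standard error was 2.17.

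HARS2, the mitochondrial histidine enzyme, had the smallest adjusted p among the synthetase genes. Its sums were 63.1 and 38.1 with STM2457, against 399, 411 and 367 in U87-R and 331, 367 and 311 in U87 (log2 change -2.97 ± 0.24, adjusted p = 6.98e-05). HARS1 and HARS2 are read in opposite directions from starts that the annotation places 85 bases apart on chromosome 5, and both were lower with STM2457, HARS2 by more on the log2 scale. The test of that difference between genes was not run, and 17 called bases on the other strand of the HARS1 span were not counted.

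WARS2 and FARS2, the mitochondrial tryptophan and phenylalanine enzymes, had low sums with STM2457. WARS2 had sums of 9.11 and 4.99 with STM2457, against 128, 31.9 and 106 in U87-R and 113, 97.7 and 122 in U87. FARS2 had 8.52 and 0 with STM2457, against 62.8, 36.9 and 38.3 in U87-R and 45.5, 30.1 and 34.3 in U87. In neither gene did the treated libraries reach the lowest untreated one. Both calls, which are no support as stated above, were lost with scores of at least 10 alone. That of WARS2 was lost by the number of called bases too.

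The other 3 mitochondrial genes that fell were LARS2, AARS2 and EARS2, for the leucine, alanine and glutamate enzymes. LARS2 had 207 and 259.7 with STM2457, against 665, 583 and 509 in U87-R and 361, 585 and 410.4 in U87 (log2 change -1.33 ± 0.23, adjusted p = 0.0019). AARS2 had 163 and 133 with STM2457, against 362, 328 and 257 in U87-R and 123, 268 and 204 in U87 (log2 change -1.08 ± 0.33, adjusted p = 0.0254), and EARS2 had 334 and 332 with STM2457, against 609, 441 and 534 in U87-R and 348, 528 and 417 in U87 (log2 change -0.65 ± 0.21, adjusted p = 0.0328). In LARS2 the treated libraries lay below all untreated ones, while in AARS2 and EARS2 they lay below U87-R and near the lowest U87 library. Of the 66 called bases of EARS2, 48 also lie in the span of GGA2, which is read from the same strand, and without bases shared by 2 genes the EARS2 change was 0.75 (adjusted p = 0.155). The AARS2 call was lost without STM2457 replicate 1 (adjusted p = 0.0926) or 2 (0.169) or U87-R replicate 1 (0.0723). By the number of called bases LARS2 and AARS2 lost their calls (0.392 and 0.179), and with scores of at least 10 alone EARS2 lost its call (0.132). The EARS2 call was lost without STM2457 replicate 1 (0.14) or 2 (0.139), U87-R replicate 1 (0.0897) or 3 (0.0832), or U87 replicate 3 (0.0503).

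MARS2, the mitochondrial methionine enzyme, had the highest mean sum of its class. Its sums were 478 and 532 with STM2457, against 634, 561 and 483 in U87-R and 425, 732 and 437 in U87 (log2 change -0.14 ± 0.24, adjusted p = 0.669), and its groups overlapped. PARS2 (change -0.59, adjusted p = 0.108), TARS2 (-0.55, 0.0509), YARS2 (-0.55, 0.185) and CARS2 (0.24, 0.702) did not pass the threshold either. Of the 5 mitochondrial genes too low to test, IARS2 and SARS2 had no called base in any library. RARS2 was listed only with STM2457, at 3.84 and 20.1, and NARS2 and VARS2 were at 0 in both treated libraries, with at most 19.4 and 8.38 in the others.

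Bases near the 5′ end and bases elsewhere were then fitted apart, since a sum over the whole gene joins both. Without the bases within 50 nt of a 5′ end, 4.85% of 10049 genes were called higher and 54.9% lower, with a median change of -1.26. Of 17 cytosolic genes tested, 4 were higher (IARS1, FARSA, MARS1 and NARS1) and 8 lower (SARS1, YARS1, AARS1, HARS1, TARS1, LARS1, CARS1 and GARS1), with a median of -1.19. Of 11 mitochondrial genes, 0 were higher and 8 lower (AARS2, EARS2, FARS2, HARS2, LARS2, TARS2, WARS2 and YARS2), with a median of -1.33, and all 11 changes were below 0. Both medians were close to that of all genes. Of these genes, IARS1 and FARSA reached 10 with STM2457 alone and FARS2 and WARS2 in untreated libraries alone, as did 198 of the 487 genes called higher and 1215 of the 5521 called lower over all genes. Centred on the median gene, 2079 of all genes were higher and 2109 lower, 5 cytosolic genes were higher and 2 lower, and 2 mitochondrial genes were higher and 3 lower. The genes still lower were LARS1 and SARS1 of the cytosolic class and FARS2, HARS2 and WARS2 of the mitochondrial one. Of these, FARS2 and WARS2 entered through untreated libraries alone. IARS1 and FARSA, among the cytosolic genes still higher, entered through the STM2457 libraries alone, so the calls of these genes are no support. YARS1, TARS1, HARS1, GARS1, LARS2, AARS2, YARS2 and EARS2 lost their calls, with changes from -1.85 (GARS1) to -0.032 (AARS2). The changes of TARS2, CARS1 and AARS1 were then 0.69, 0.049 and 0.0033, so their drop does not hold under centring, and that of TARS2 was 0.044 with libraries scaled to equal totals. In all, 10 cytosolic and 4 mitochondrial changes were above 0 under centring.

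TARS1, the threonine enzyme, shows how the 2 kinds of base offset each other. Its sum away from the 5′ end was 47.2 and 48.3 with STM2457, against 187, 148 and 182 in U87-R and 121, 153 and 165 in U87 (log2 change -1.82 ± 0.27, adjusted p = 0.000555), with all treated values below all others. Near the 5′ end it was 83.4 and 113 with STM2457, against 49.9, 45.0 and 0 in U87-R and 0, 22.7 and 10.9 in U87 (log2 change 2.88 ± 2.08, adjusted p = 0.325), with the treated values on top. YARS2, the mitochondrial tyrosine enzyme, had 69.5 and 108 with STM2457, against 347, 298 and 258 in U87-R and 169, 421 and 295 in U87 away from the 5′ end (log2 change -1.77 ± 0.38, adjusted p = 0.00375). Near the 5′ end it had 166 and 144 with STM2457, against 63.3, 70.5 and 44.8 in U87-R and 31.1, 35.3 and 41.8 in U87 (log2 change 1.39 ± 0.26, adjusted p = 0.0102), so that both of its parts passed the threshold, in opposite directions. Centred on the median gene, neither passed (change -0.53, adjusted p = 0.213 away from the 5′ end and 0.35, 0.58 near it).

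LARS1 showed the largest drop of a cytosolic gene in these sums. It had 4.84 and 38.6 with STM2457, against 225, 147 and 171 in U87-R and 151, 143 and 178 in U87 away from the 5′ end (log2 change -3.56 ± 0.68, adjusted p = 0.00216), and the change was -2.18 without STM2457 replicate 1 and -4.94 without replicate 2. Near the 5′ end LARS1 had 142 and 113 with STM2457, against 121, 102 and 104 in U87-R and 86.7, 69.7 and 73.9 in U87 (log2 change 0.22 ± 0.18, adjusted p = 0.371). Away from the 5′ end CARS1, the cysteine enzyme, had 196 and 241 with STM2457, against 670.2, 316 and 586 in U87-R and 347, 435 and 449 in U87 (log2 change -1.19 ± 0.31, adjusted p = 0.0097) and its call was lost without STM2457 replicate 1 (adjusted p = 0.098). Without that library the calls of YARS2 (0.0565) and NARS1 (0.0567) away from the 5′ end were lost as well, that of AARS2 without STM2457 replicate 2 (0.0858), and that of TARS2 without any of 6 libraries (0.0516 to 0.108), all 3 U87 libraries among them.

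FARSA, MARS1, NARS1 and IARS1 were called higher away from the 5′ end. FARSA had 28.5 and 46.7 with STM2457, against 4.93, 0 and 0 in U87-R and 0 in all 3 libraries in U87, and IARS1 had 79.8 and 70.8 with STM2457, against 0.391, 0 and 1.83 in U87-R and 0.290, 0 and 3.05 in U87. The FARSA and IARS1 values were 0 or near 0 in all untreated libraries, so both entered the fit through the STM2457 libraries. MARS1 had 104 and 97.8 with STM2457, against 29.3, 27.6 and 29.6 in U87-R and 22.3, 32.8 and 38.5 in U87 (log2 change 1.78 ± 0.45, adjusted p = 0.00841). NARS1 had 229 and 216 with STM2457, against 103, 79.9 and 128 in U87-R and 68.0, 91.8 and 88.9 in U87 (log2 change 1.12 ± 0.30, adjusted p = 0.0114), and in both genes the treated libraries were above all others. In NARS1 the highest bases lay 59 to 61 nt from the start, just outside the limit of 50 nt.

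Of the 21 synthetase genes tested with the bases near the 5′ end alone, a fit added after the data were seen, all had changes above 0. Of all 5319 genes so tested, 22.7% were called higher and 0.940% lower, and the median change was 1.06. Among 16 cytosolic genes, 3 were called higher (FARSB, IARS1 and MARS1) and 0 lower, with a median of 0.68. Among 5 mitochondrial genes, 4 were called higher (MARS2, YARS2, CARS2 and AARS2) and 0 lower, with a median of 1.39. Of these 7, FARSB, IARS1, MARS2 and AARS2 reached 10 with STM2457 alone and are no support, as did 481 of the 1208 genes called higher over all genes. When libraries were centred on their median gene, which removes the rise of 1.06, 455 of all genes were higher and 240 lower, 2 cytosolic genes were higher and 2 lower, and 2 mitochondrial genes were higher and 0 lower. The 4 synthetase genes still higher were FARSB, IARS1, MARS2 and AARS2, which entered through the STM2457 libraries alone, so these calls are no support. Of the 21 changes, 9 were then above 0, and that of MARS1 was -0.47, so its rise near the 5′ end does not hold under centring. With libraries scaled to equal totals all 21 were above 0.

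Near the 5′ end, MARS1 held the highest sums of the synthetase genes, which were 398 and 387 with STM2457, against 261, 248 and 285 in U87-R and 181, 199 and 189 in U87 (log2 change 0.57 ± 0.10, adjusted p = 0.00786). CARS2, the mitochondrial cysteine enzyme, had 116 and 142 with STM2457, against 51.4, 55.5 and 54.6 in U87-R and 42.6, 70.9 and 54.7 in U87 (log2 change 1.24 ± 0.25, adjusted p = 0.0132). In both, the treated libraries were above all others, and the CARS2 call was lost after centring (change 0.20, adjusted p = 0.698). FARSB had 21.2 and 51.7 with STM2457 and was listed at 0 in all 6 untreated libraries. MARS2 had 34.7 and 17.9 with STM2457 and was listed at 0 in the same 6. AARS2 had 16.6 and 20.7 with STM2457, was listed at 0 in U87-R and had 9.26 in U87 replicate 2 alone. These 3 genes thus had bases near the 5′ end in both treated libraries and in none of U87-R. IARS1 had 66.3 and 49.6 with STM2457, against 0, 6.81 and 0 in U87-R and 0 in all 3 libraries in U87.

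The other 3 calls near the 5′ end were each lost without 1 of the 2 STM2457 libraries, which leaves 1 library in that group. For YARS2 and MARS1 this was replicate 1 and for CARS2 replicate 2. Without replicate 1 the changes were 1.29 (YARS2), 0.55 (MARS1) and 1.38 (CARS2). Without replicate 2 they were 1.49, 0.59 and 1.10. YARS2 also lost its call with the replicate block (adjusted p = 0.0506). The genes with 5′ sums that did not pass include VARS1 and CARS1. VARS1 had 181 and 214 with STM2457, against 98.6, 86.8 and 114 in U87-R and 32.3, 122 and 65.7 in U87 (log2 change 0.98 ± 0.49, adjusted p = 0.18), and CARS1 had 122 and 159.5 with STM2457, against 108, 65.9 and 83.7 in U87-R and 70.6, 55.2 and 58.8 in U87 (log2 change 0.72 ± 0.25, adjusted p = 0.0789). In both genes the treated libraries lay above all U87-R libraries.

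**Figure D3:**
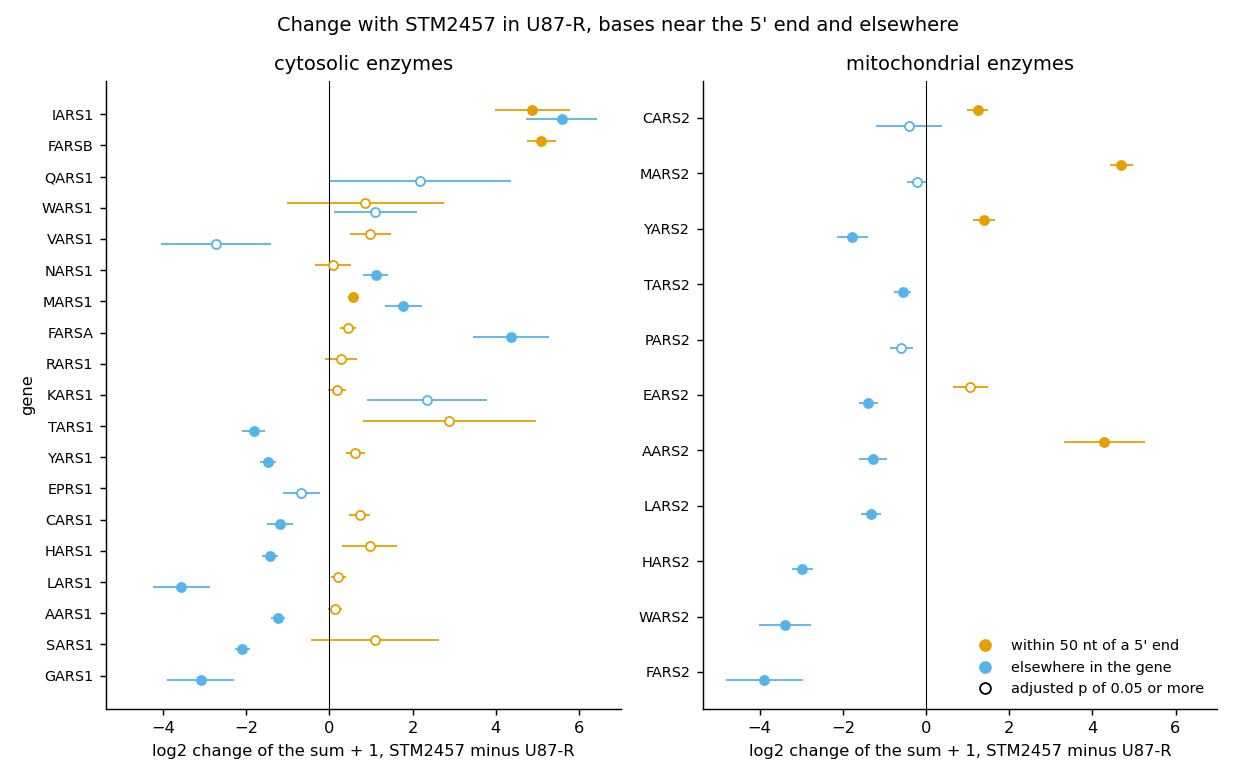
Change of log2(sum + 1) with STM2457 relative to U87-R (x axis, bars are standard errors) for each tested synthetase gene (y axis), for bases within 50 nt of a 5′ end and for bases elsewhere; filled points have an adjusted p under 0.05. Without scaling, all 21 changes near the 5′ end are above 0 (9 after centring on the median gene), while 10 of 17 cytosolic and 11 of 11 mitochondrial changes elsewhere are below 0 (7 and 7 after centring). Points of genes listed at 0 in U87-R depend on the pseudocount, and IARS1, FARSB, MARS2 and AARS2 near the 5′ end and IARS1, FARSA, FARS2 and WARS2 elsewhere entered through 1 side of the comparison alone.

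Single bases were fitted over 188742 bases, of which 6.65% were higher and 16.9% lower with STM2457 at an adjusted p under 0.05. The synthetase genes held 927 called bases, of which 449 were tested, and 34 were higher and 84 lower. Of the 34, 19 were listed with STM2457 alone, and of the 84, 41 were not listed with STM2457 at all; such bases entered the fit through 1 side, so no p is given for them. Near the 5′ end 12 of 101 tested bases were higher and 1, in KARS1, lower, and elsewhere 22 of 348 were higher and 83 lower. The shares of all single bases by position are not given here, so these counts have no baseline by position. The shares known by position are those of gene sums, which are another unit and no baseline for single bases. In the sums near the 5′ end, 22.7% of all genes tested were called higher and 0.940% lower. In the sums elsewhere, 4.85% were called higher and 54.9% lower. Whether the bases of synthetase genes differ from those of all genes was not tested. Bases that scored 10 or more in each of the 3 U87-R libraries numbered 36 near the 5′ end, and 0 of these were missing from both STM2457 libraries while 33 (91.7%) scored 10 or more in both. Elsewhere 28 of 110 (25.5%) were missing and 45 (40.9%) still scored 10 or more. Over all genes, 1.09% of such bases near the 5′ end were missing and 92.5% kept, and 31.3% of those elsewhere were missing and 38.4% kept. Adjacent called bases can have equal scores. The first base of CARS2 and the base before it each scored 42.0 and 43.2 with STM2457. Each base was counted and summed on its own, so neighbouring bases may not be independent.

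Neighbouring bases near the annotated end of 3 genes differed in what remained. In AARS1, on chromosome 16, the base at position 70252638 (hg38), 340 nt before the annotated end and the highest of the gene, scored 72.2 and 63.8 with STM2457, against 114, 109 and 106 in U87-R and 109.8, 94.0 and 102 in U87 (adjusted p = 0.00266). The base at 70252606, 308 nt before the end, scored 0 and 2.39 with STM2457, against 109, 105 and 102 in U87-R and 106, 89.1 and 97.4 in U87 (adjusted p = 0.000138), and that at 70252600, 302 nt before it, scored 0 in both libraries with STM2457, against 107, 97.0 and 100.4 in U87-R and 73.3, 53.9 and 92.4 in U87 (not listed with STM2457). All 3 were near 100 in U87-R, and with STM2457 the first kept more than 60 in both libraries while the others were at or near 0.

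HARS1, on chromosome 5, showed a like contrast. Its highest base, at 140674280 and 375 nt before the end, scored 66.6 and 72.8 with STM2457, against 92.2, 109 and 101 in U87-R and 86.3, 90.0 and 78.2 in U87 (adjusted p = 0.0149). The base at 140674256, 351 nt before the end, scored 0 in both libraries with STM2457, against 98.7, 115 and 106 in U87-R and 89.8, 97.1 and 83.2 in U87 (not listed with STM2457). Without the inhibitor both had like scores. In YARS1, on chromosome 1, the highest base, at 32775861, scored 55.2 and 67.2 with STM2457, against 103, 125 and 109 in U87-R and 109, 94.5 and 110.0 in U87 (adjusted p = 0.00299), and that at 32775847 scored 0 in both libraries with STM2457, against 86.7, 89.8 and 88.2 in U87-R and 81.7, 74.5 and 81.2 in U87 (not listed with STM2457). The first of these fell and stayed above 50, while the other was no longer listed.

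**Figure D4:**
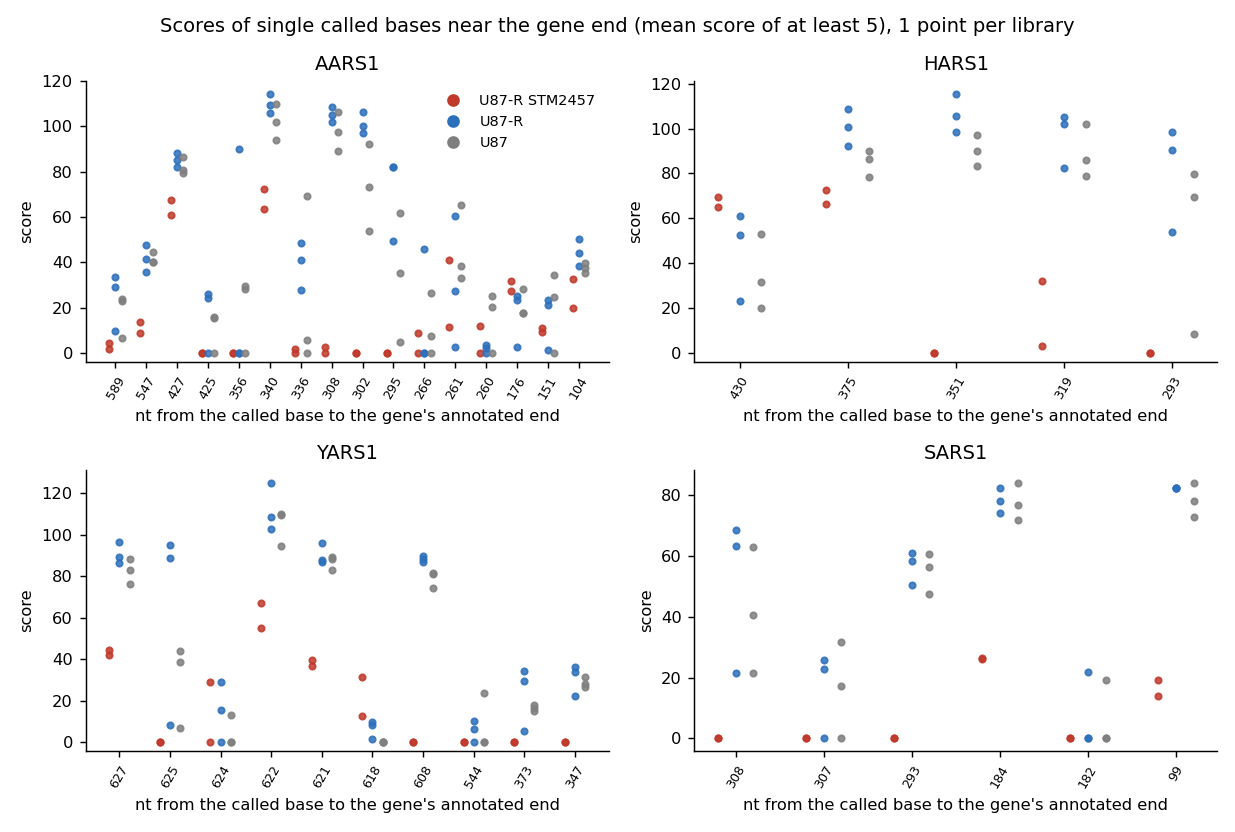
Scores of single called bases (y axis) near the annotated end of AARS1, HARS1, YARS1 and SARS1 against their distance to that end in nt (x axis, 1 position per base), with 1 point per library and colours for STM2457-treated U87-R, U87-R and U87. In AARS1 the base 340 nt from the end keeps scores of 63.8 and 72.2 with STM2457, while those 308 and 302 nt from the end are at 0 to 2.39.

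Some internal bases had like scores in all 8 libraries. The highest base of TARS2, the mitochondrial threonine enzyme, at 150507177 on chromosome 1, scored 137 and 127 with STM2457, against 112, 126 and 133 in U87-R and 119, 109.6 and 114 in U87 (adjusted p = 0.511). That of MARS2, at 197706901 on chromosome 2, scored 117 and 101 with STM2457, against 117, 114 and 109 in U87-R and 139, 92.4 and 103 in U87 (adjusted p = 0.849). The highest of SARS1, at 109215007 on chromosome 1 and 1089 nt from the nearest annotated start, scored 89.0 and 90.1 with STM2457, against 92.7, 115 and 99.9 in U87-R and 129.6, 98.6 and 98.3 in U87 (adjusted p = 0.399). The treated and untreated libraries overlapped at TARS2 and MARS2, and at SARS1 the treated ones lay just below.

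Other internal bases scored lower or were not listed with STM2457. The highest base of GARS1, at 30633831 on chromosome 7, scored 0 in both libraries with STM2457, against 67.9, 49.7 and 73.3 in U87-R and 51.7, 52.2 and 68.6 in U87 (not listed with STM2457). That of HARS2, at 140698719 on chromosome 5, scored 19.5 and 13.9 with STM2457, against 89.3, 92.7 and 80.4 in U87-R and 94.5, 82.6 and 47.0 in U87 (adjusted p = 0.00126), and that of LARS2, at 45547762 on chromosome 3, scored 41.5 and 31.1 with STM2457, against 101, 109 and 109 in U87-R and 90.9, 106 and 89.4 in U87 (adjusted p = 0.000377). The treated libraries were below all others at each of the 3. In EPRS1, whose sum did not pass the threshold, the highest base, at 219997138 on chromosome 1, scored 0 in both libraries with STM2457, against 55.7, 45.5 and 45.5 in U87-R and 34.9, 51.6 and 47.3 in U87 (not listed with STM2457). At 146114162 on chromosome 5, the highest base of LARS1 scored 0 and 9.59 with STM2457, against 57.9, 49 and 60.1 in U87-R and 47.4, 42.8 and 51.0 in U87 (adjusted p = 0.0105). At 44300519 on chromosome 6, that of AARS2 scored 14.6 and 18.2 with STM2457, against 65.6, 45.0 and 40.3 in U87-R and 25.9, 53.4 and 35 in U87 (adjusted p = 0.0184). At 119032952 on chromosome 1, that of WARS2 scored 3.20 and 0 with STM2457, against 36.2, 6.96 and 25.4 in U87-R and 24.9, 43.8 and 28.0 in U87 (adjusted p = 0.0287). At each of these 4 no treated library was above the lowest U87 one.

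The highest base of EARS2 did not pass the threshold. That of EARS2, at 23524297 on chromosome 16, scored 72.2 and 71.6 with STM2457, against 81.8, 104 and 98.8 in U87-R and 69.2, 92.2 and 107 in U87 (adjusted p = 0.2), and that of FARS2, at 5368944 on chromosome 6, scored 0 in both libraries with STM2457, against 9.98, 1.95 and 6.14 in U87-R and 23.7, 17.8 and 6.86 in U87 (not listed with STM2457). The EARS2 groups overlapped, and FARS2 was at 0 with STM2457.

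A set of internal bases was listed at 0 in U87-R and U87 and present with STM2457. In KARS1, 2 adjacent bases at 75631717 and 75631718 on chromosome 16 scored 25.7 to 25.8 with STM2457 and 0 in the other 6 libraries. In IARS1, 2 adjacent bases at 92247448 and 92247449 on chromosome 9 scored 27.8 to 28.6 with STM2457 and 0 elsewhere. These 2 bases of IARS1 lie 46249 and 46248 nt from the annotated start, and its highest base, at 92293657 and 40 nt from it, scored 33.1 and 28.0 with STM2457, against 0 in all 3 libraries in U87-R and 0 in all 3 libraries in U87 (listed with STM2457 alone). In FARSA the base at 12930448 on chromosome 19 scored 19.7 and 21.5 with STM2457, against 0 in all 3 libraries in U87-R and 0 in all 3 libraries in U87 (listed with STM2457 alone). Apart from the highest base of a gene, the single bases given here are examples chosen after their values were seen.

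At the transcript start, the highest base of MARS1 was the first of its transcript (57488068 on chromosome 12) and scored 111 and 98.2 with STM2457, against 75.9, 87.9 and 98.5 in U87-R and 71.5, 70.9 and 68.9 in U87 (adjusted p = 0.2). Its base at 57488070 scored 118 and 102 with STM2457, against 66.9, 71.5 and 76.0 in U87-R and 54.0, 57.6 and 50.7 in U87 (adjusted p = 0.0113). In the MARS1 stretch shown above these are the capitals at bases 1 and 3 of the transcript. The first base of YARS2, at 32755897 on chromosome 12, scored 102 and 105 with STM2457, against 58.2, 61.9 and 44.8 in U87-R and 27.2, 30.3 and 30.4 in U87 (adjusted p = 0.00931), and that of MARS2, the last capital of its stretch, scored 34.7 and 17.9 with STM2457, against 0 in all 3 libraries in U87-R and 0 in all 3 libraries in U87 (listed with STM2457 alone). The highest base of FARSB, at 222656073 on chromosome 2, scored 10.0 and 9.98 with STM2457, against 0 in all 3 libraries in U87-R and 0 in all 3 libraries in U87 (listed with STM2457 alone). That of NARS1, at 57621775 on chromosome 18, scored 66.5 and 69.3 with STM2457, against 27.8, 32.1 and 33.1 in U87-R and 27.9, 27.8 and 28.5 in U87 (adjusted p = 0.00438). The base of MARS1 at 57488070 and those of YARS2 and NARS1 were called higher, with the STM2457 libraries above all untreated ones.

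The authors' deposited lists of reproducible sites and peaks join the libraries of a group and carry no replicate error. Cytosolic genes held 30 such sites with STM2457, 44 in U87-R and 31 in U87, and mitochondrial genes held 20 with STM2457, 63 in U87-R and 60 in U87. The whole lists held 12791 sites with STM2457, 35207 in U87-R and 33396 in U87. Of the cytosolic sites, 20 were on the lists of both STM2457 and U87-R, which is 66.7% of the first list and 45.5% of the second, and of the mitochondrial sites 18 were shared, 90.0% of the first list and 28.6% of the second. The shared part of the whole lists is not given here, so these shares have no baseline, and the difference between the classes was not tested. Peaks numbered 75 with STM2457, 114 in U87-R and 86 in U87 in cytosolic genes, and 71 with STM2457, 131 in U87-R and 140 in U87 in mitochondrial genes. The whole lists held 50034 peaks with STM2457, 96528 in U87-R and 95629 in U87. SARS1 had 3 peaks with STM2457, 26 in U87-R and 22 in U87, and GARS1 had 0 with STM2457, 5 in U87-R and 8 in U87, while KARS1 had 4 with STM2457 and 0 in the other groups.

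The second comparison sets resistant U87-R against U87. No synthetase gene was called, while 0.996% of all genes were called higher and 0.424% lower (108 and 46 genes; 57 and 17 with the replicate number as a block). Of the 30 synthetase genes tested, 28 had changes above 0 and 8 (26.7%) had an unadjusted p under 0.05, against 6753 with changes above 0 and 1369 (12.6%) with such a p among 10841 genes. The median change was 0.37 for the 19 cytosolic genes, all above 0, 0.22 for the 11 mitochondrial genes and 0.12 for all genes. Changes above 0 numbered 27 of 30 after centring on the median gene, all 19 cytosolic genes among them. Away from the 5′ end, 3 of 28 synthetase genes tested (10.7%) had an unadjusted p under 0.05, beside 11.1% of all genes. Near it 7 of 21 (33.3%) had such a p, beside 14.2% of all genes. After centring, 21 of the 28 changes away from the 5′ end and 10 of the 21 near it were above 0. Of the cytosolic genes, 9 had all U87-R libraries above all U87 libraries (FARSA, FARSB, KARS1, MARS1, NARS1, RARS1, SARS1, TARS1 and WARS1), of the mitochondrial genes 1 (HARS2), and none had them below. Of all tested genes, 11.0% were higher and 5.15% lower without overlap. As a share of all scores in genes, the 35 genes held 0.311% to 0.322% in U87-R and 0.253% to 0.292% in U87. With STM2457 they held 0.369% and 0.359%, above every U87-R library.

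WARS1, the cytosolic tryptophan enzyme and a gene that interferon induces, had the largest change. Its sums were 494, 111 and 283 in U87-R and 8.36, 98.8 and 28.9 in U87 (log2 change 3.05 ± 0.82, adjusted p = 0.151). Without U87 replicate 2 the change was 3.90 and passed the threshold (adjusted p = 0.0393). WARS1 is described although the rule for named genes did not choose it. RARS1, the arginine enzyme, had 99.9, 159 and 60.4 in U87-R and 44.9, 53.0 and 47.4 in U87 (log2 change 1.02 ± 0.40, adjusted p = 0.333). The RARS1 groups did not overlap. MARS1 had a change of 0.41 ± 0.14 (adjusted p = 0.287) and KARS1 one of 0.62 ± 0.22 (adjusted p = 0.302).

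**Figure D5:**
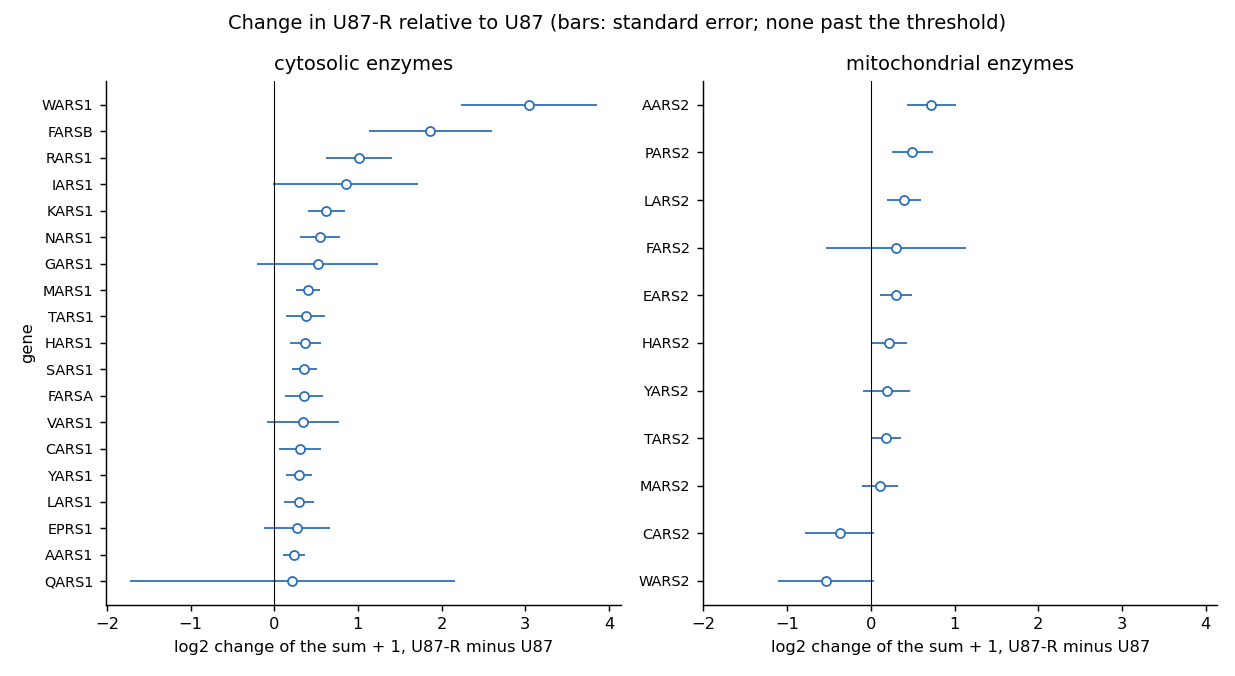
Change of log2(sum + 1) in U87-R relative to U87 (x axis, bars are standard errors) for each tested synthetase gene (y axis). The changes of 28 of 30 genes are above 0 (27 after centring on the median gene), WARS1 is highest at 3.05, and no gene has an adjusted p under 0.05.

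Lists of neighbouring functions were read from the same fits. With STM2457, 0 of 11 tested genes for synthetase partners, proofreading and mitochondrial amidation were called higher and 3 lower (median change -0.49), and 0 of 7 elongation factor genes were higher and 3 lower (-0.94). Of 17 genes for tRNA processing, modification and export, 3 were higher and 8 lower (-0.95), and of 17 genes of the GCN2-ATF4 response 0 were higher and 5 lower (-0.33). Over all genes 6.34% were higher and 38.5% lower, with a median change of -0.69, and a difference of any list from these shares was not tested. Against U87, no gene of these 4 lists was called in U87-R, beside 0.996% of all genes called higher and 0.424% lower.

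The examples below are the called genes with the largest changes. MTFMT, which formylates the mitochondrial initiator tRNA, had sums of 0 in both libraries with STM2457, against 39.5, 4.54 and 16.6 in U87-R and 13.8, 2.34 and 22.2 in U87, reaching 10 in untreated libraries alone, and GATC, a subunit of the mitochondrial amidotransferase, had 52.7 and 113 with STM2457, against 301, 157 and 209 in U87-R and 119, 257 and 183 in U87 (log2 change -1.46 ± 0.44, adjusted p = 0.0259). TSFM, a mitochondrial elongation factor, had 172 and 202 with STM2457, against 522, 445 and 451 in U87-R and 425, 452 and 407 in U87 (log2 change -1.34 ± 0.16, adjusted p = 0.000319), and EEF2, the cytosolic translocation factor, had 823 and 751 with STM2457, against 1733, 1507 and 1814 in U87-R and 1602, 1547 and 1625 in U87 (log2 change -1.09 ± 0.12, adjusted p = 0.000243). The treated libraries lay below all untreated ones in these 4 genes. RPP30, a subunit of ribonuclease P, had 26.2 and 55.8 with STM2457, against 0 in all 3 libraries in U87-R and 0, 0.120 and 2.10 in U87, reaching 10 with STM2457 alone, and TRMT1, a tRNA methyltransferase, had 290.1 and 289.9 with STM2457, against 82.1, 109.7 and 126 in U87-R and 76.4, 126 and 100.2 in U87 (log2 change 1.47 ± 0.31, adjusted p = 0.00473). NSUN2, another tRNA methyltransferase, had 31.9 and 42.5 with STM2457, against 322, 224 and 259 in U87-R and 202, 327 and 273 in U87 (log2 change -2.81 ± 0.29, adjusted p = 0.000166), and TSEN34, a subunit of the tRNA splicing endonuclease, had 0 and 35.9 with STM2457, against 104, 67.8 and 84.7 in U87-R and 43.4, 125 and 105 in U87 (log2 change -3.81 ± 1.27, adjusted p = 0.0374). The treated libraries were on top in RPP30 and TRMT1 and at the bottom in NSUN2 and TSEN34. TRIB3, a target and inhibitor of the ATF4 pathway, had 187 and 169 with STM2457, against 776, 228 and 595 in U87-R and 328, 243 and 395 in U87 (log2 change -1.40 ± 0.46, adjusted p = 0.0337), and SESN2, a stress-induced leucine sensor, had 281 and 233 with STM2457, against 729.5, 391 and 501 in U87-R and 408, 402 and 414 in U87 (log2 change -1.03 ± 0.24, adjusted p = 0.00868). METTL3, the target of STM2457, had 134 and 161 with STM2457, against 242, 113 and 207 in U87-R and 95.7, 122 and 122 in U87 (log2 change -0.28 ± 0.35, adjusted p = 0.538), and its groups overlapped.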

How the data were processed

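Sequenced m6A-eCLIP reads were handled with UMI-tools, cutadapt and STAR on hg38, per the submitters' processing notes. No source used here gives the caller, the tool versions or the score formula. The authors deposited the called bases of each library, each with its score, and for each group lists of reproducible sites and peaks with the fraction of libraries in which each passed and a combined score. These deposited scores and fractions were used as they are, with no scaling between libraries, and depth is unknown. Input libraries were not analysed here.

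Called bases were assigned to gene spans of RefSeq GRCh38.p14, an assembly of hg38, on the gene's strand, and 400103 of 452349 bases (88.5%) fell in a gene. The strand came from the RefSeq promoter table for 30 of the 35 genes and from general knowledge for AARS2, LARS1, VARS1, VARS2 and YARS1. Called bases on the other strand of a span were not counted. Per gene, log2(sum of scores + 1) was fitted with limma 3.58.1 (trend, R 4.3.3) over the 10841 genes that reached a sum of 10 in 2 or more libraries, with the 3 group means in 1 fit of 8 libraries and Benjamini-Hochberg adjustment. Single bases listed in 2 or more libraries of any 1 group were fitted likewise on log2(score + 1). Peaks and sites were counted in a gene from an overlap of 1 base. The method was tested on simulated data.

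Same-numbered libraries of U87-R and U87 deviated together from their group means (correlations over genes of 0.105, 0.312 and 0.101 for numbers 1 to 3), so the replicate block is given beside that comparison where it moves a count. Not every library correlated best with its own number: U87-R 1 with U87 3 gave 0.14 and U87-R 3 with U87 1 gave 0.121. The members and lists were chosen with earlier results of these data known. Values per library are given for called genes, for the 3 genes of each class with the highest mean sum and, in these, for the base with the highest mean score; from the other lists, up to 2 called genes per direction are named. Alternatives covered the filter on low sums, the pseudocount, scaling, the replicate block, the libraries fitted, a minimum score, the number of bases, bases in 1 gene only, 100 nt in place of 50 nt and leaving out each library.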

Additional observations from a re-analysis of the deposited data

How the results depend on the processing

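Of the summary counts and shares under the alternatives, 382 stayed within 1.5 times or 1 SD of the value reported and 60 moved, and of the values of single genes 562 kept direction and call, 83 kept direction and lost the call and 7 reversed. For STM2457 against U87-R, centring on the median gene gave 1658 genes higher and 2611 lower (cytosolic 7 and 3), and equal totals gave 1737 and 2553 (cytosolic 7 and 3). The number of called bases gave 303 genes higher and, of the cytosolic genes, 1 higher and 3 lower. With no filter 1 mitochondrial gene was higher, and with scores of at least 10 only, 3 mitochondrial genes were lower. With the replicate block 2 cytosolic genes were higher. EARS2 and NARS1 lost their calls (adjusted p = 0.0814 and 0.0641), as did FARSB, which entered through the STM2457 libraries alone. Same-numbered STM2457 and U87-R libraries had correlations of -0.028 and -0.025. With 2 STM2457 libraries their deviations mirror each other, so these values cannot tell whether the libraries were paired. Leaving out 1 library gave 287 to 704 genes higher, and 2 to 5 cytosolic ones.

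For U87-R against U87, 57 genes were higher and 17 lower with the replicate block, 57 higher with only these groups fitted, 55 higher and 19 lower by the number of bases, 24 lower with sums of at least 50, and 80 lower after centring. Leaving out 1 library gave 39 to 147 higher, 15 to 52 lower, 0 to 1 cytosolic genes higher and 0 to 6 single bases of synthetase genes higher. The block changed no other call of a synthetase gene in this comparison.

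Away from the 5′ end, centring gave 2079 genes higher and 2109 lower, 2 cytosolic genes lower, and 2 mitochondrial genes higher and 3 lower; equal totals gave 939 higher, and leaving out 1 library 280 to 511. Near it, centring gave 455 genes higher and 240 lower, with 2 cytosolic genes lower and 2 mitochondrial genes higher. These 2 mitochondrial genes, MARS2 and AARS2, entered through the STM2457 libraries alone. Equal totals gave 2627 higher there, of which 10 cytosolic. The block gave 25 lower there, and 100 nt gave 76 lower and a cytosolic share of 60.5% with STM2457. Leaving out 1 library gave 513 to 1275 higher and 24 to 59 lower there, 1 to 5 cytosolic and 2 to 5 mitochondrial genes higher.

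The reversed values were 0.75 for EARS2 with bases in 1 gene only, -0.029 for NARS1 by the number of bases, 0.69 for TARS2, 0.049 for CARS1 and 0.0033 for AARS1 away from the 5′ end after centring, 0.044 for TARS2 there with equal totals, and -0.47 for MARS1 near the 5′ end after centring. The EARS2 value leaves out the bases it shares with GGA2; for the others the cause was not tested. Single bases called in 2 libraries of any group are the bases fitted, so that filter gave no separate value. Depth is unknown, so a score of 0 is only a base that was not listed.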
